A study of Oryctolagus cuniculus with 12 samples.

Results

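The IL10 and IL20 cytokines and their receptor chains were followed in rabbit conjunctiva after trabeculectomy, a glaucoma operation that drains aqueous humor under the conjunctiva into a filtering bleb. The genes were chosen by name, and they were selected on counts from all 4 groups of these data, so every value of a member given here is a description and supports no claim of its own. Of 9 named members, 8 had a row among the 20566 genes of the table: the ligands IL10, IL19, and IL20 and the receptor chains IL10RA, IL10RB, IL20RA, IL20RB, and IL22RA1. IL24, a ligand close to IL20, was not analysed here. Of these 8 genes, 7 passed the filter on low counts that left 14835 genes for testing, and IL19 did not, so no test is given for IL19.

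All 12 libraries came from female Japanese white rabbits, young animals by the study's methods. Conjunctiva of left eyes without surgery gave the 3 control libraries. Bleb conjunctiva of right eyes gave 3 libraries at 3 hours after trabeculectomy (TL3h), 3 at 3 days (TL3d), and 3 at 14 days (TL14d). Every operated eye also received mitomycin C, an agent that limits scarring, and the study's methods add a steroid (betamethasone) injection under the conjunctiva and an antibiotic ointment, so surgery and these drugs cannot be told apart. By the study's methods surgery was on the right eye, so different operated eyes are different animals, while the labels do not match control eyes to them and do not say when control tissue was taken. The study reused these trabeculectomy libraries from earlier data, so its methods on age, drugs, and operated eye may not describe these animals exactly.

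Cytokines of this family signal through paired receptor chains that activate the kinases JAK1 and TYK2 and the transcription factor STAT3. IL10, which restrains inflammatory gene expression in macrophages, binds IL10RA and IL10RB. IL19, IL20, and IL24 bind IL20RA with IL20RB, and IL20 and IL24 also bind IL22RA1 with IL20RB, so that IL20RB is needed by both receptors of IL20. These receptors are best known from epithelia such as the epidermis, where IL20 is linked to thickening and to antimicrobial and keratin genes. IL22, a relative made mainly by lymphocytes, binds IL22RA1 with IL10RB and is captured by the soluble decoy receptor IL22RA2.

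Total counts ranged from 27111348 to 38591425 per library, and the detection floor of 3 counts corresponded to 0.0712 to 0.124 CPM (counts per 1000000). CPM were computed with library sizes adjusted by TMM, a scaling that assumes most genes do not change. This scaling moved TL3h the most: scaling by library size alone put the median of all genes at -0.473 (log2) at 3 hours and made 25% of the passing genes higher, where TMM gave 51%. For TL3d against TL3h the corresponding shares were 80.5% and 49.2%, and for TL14d against TL3h they were 77.6% and 50.7%. Epithelial markers were abundant in each library (summed level of the 5 with a row 3910 to 16048 CPM), whereas KRT13, KRT19, and MUC16 and the goblet cell genes MUC5AC and TFF3 were not analysed here. Control replicate 3 held more fibroblast, neutrophil, and macrophage marker RNA than the other control libraries, and TL14d replicate 1 held the least neutrophil and macrophage marker RNA of its group, so values of members that either library moves by over 1.5 times, or whose call it changes, are also given without it. In tissue of this kind, fewer cells of a type and less RNA per cell cannot be told apart.

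At 3 hours the ligands IL20 and IL10 and both IL10 receptor chains were above control, while both chains of the IL20 receptor were below it. At 3 days IL10RA and IL20 were still above control. By then IL20RB had moved from far below control to its highest group mean, with a range that overlapped control. At 14 days no member passed the threshold. By the edgeR quasi-likelihood test (Benjamini-Hochberg adjusted p under 0.05 over all genes), 6 of the 7 members passed at 3 hours, where 45.4% of all genes did. These were 4 members in the higher direction, beside 23.2% of all genes, and 2 in the lower direction, beside 22.2%. At 3 days 2 members passed, both higher, beside 17.6% of all genes in either direction, 10.6% higher, and 7% lower. This count fell to 0 without control replicate 1 or 2 or without TL3d replicate 1 or 2, and was 4 with DESeq2. At 14 days 0 of 7 members passed, as did 0% of all genes, although 1538 genes had an unadjusted p under 0.05 and DESeq2 called 1 member. Over the 7 members the median log2 fold change was 1.16, then 1.43, then 0.11, beside 0.02, -0.00182, and 0.02 over all genes tested.

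**Figure D1:**
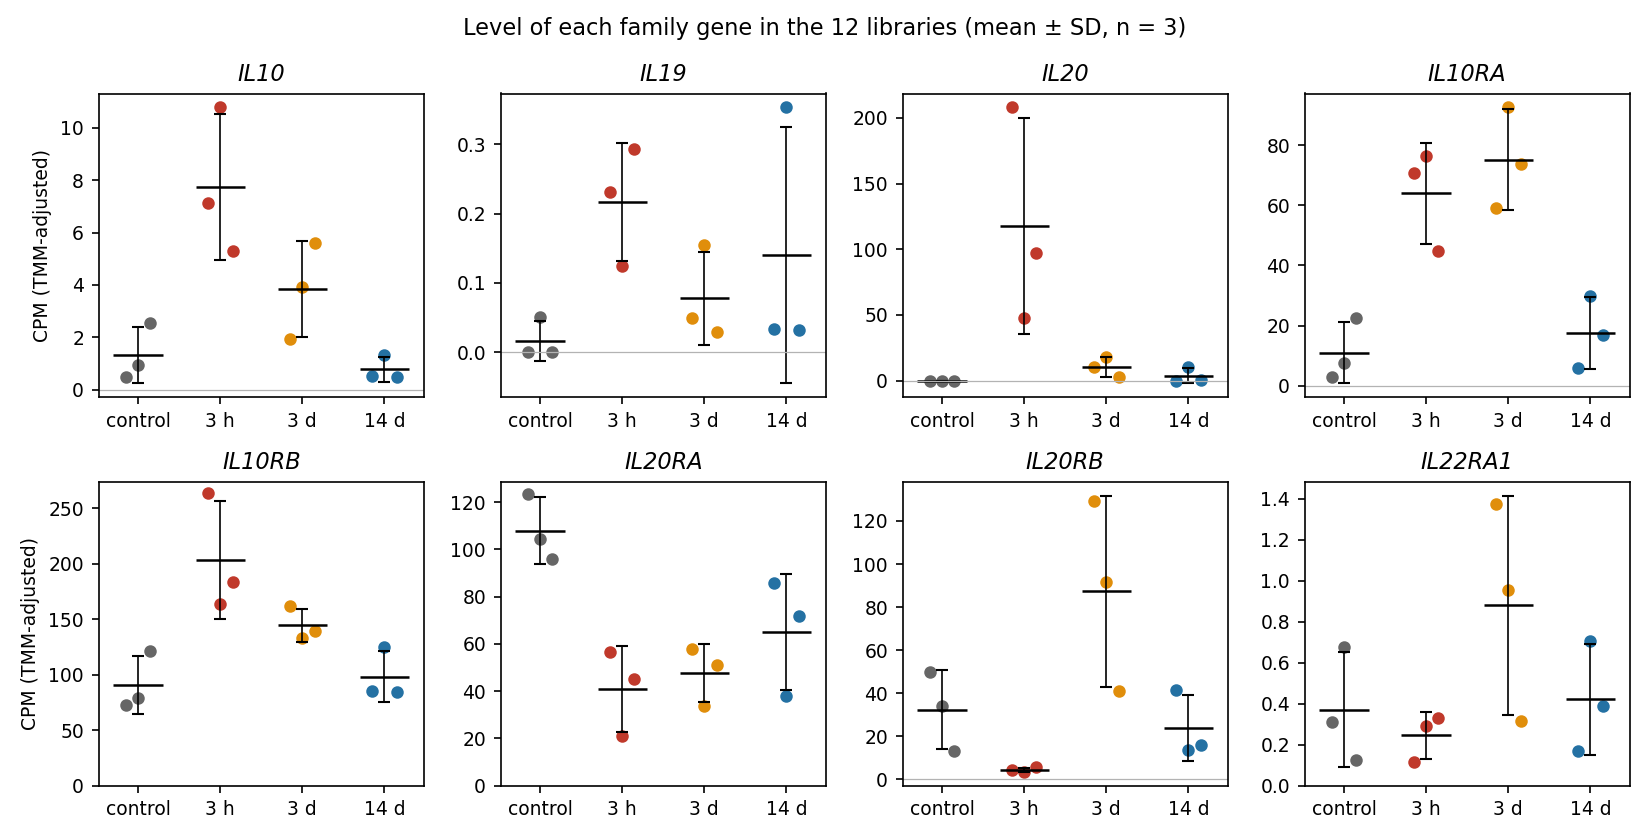
Level in CPM (vertical axis, own linear scale in each panel) of 8 family genes in the control group and at each time after trabeculectomy (3 h, 3 d, 14 d), with a point per library and the mean ± SD (n = 3). By group mean, IL20 and IL10 were highest at 3 hours, IL20RA was highest in the control group, and IL20RB dropped at 3 hours and was highest at 3 days.

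The 3 ligands lay side by side on chromosome 16 of OryCun2.0, in a stretch of 88.5 kb. IL20 (gene ID 100353705) was at 65501125 to 65504370 on the minus strand, IL19 (gene ID 100353950) at 65519479 to 65525709 on the minus strand, and IL10 (gene ID 100008701) at 65583109 to 65589602 on the plus strand. There were 15108 bases between IL20 and IL19, 57399 bases between IL19 and IL10, and no gene of the table between them.

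IL20 was nearly absent from control conjunctiva, with 0, 1, and 1 counts in replicates 1 to 3. At 3 hours its level was 208, 47.7, and 97.0 CPM, from 5415, 1150, and 2651 counts. At 3 days it was 9.97, 18.3, and 3.02 CPM. Every library at 3 hours was therefore above every library at 3 days, and every library at 3 days was above every control library. The pooled counts gave a ratio to control of 7257 at 3 hours (95% exact interval 2008 to 59935) and 623 at 3 days (172 to 5148). These intervals cover counting error only and rest on 2 control counts. The fitted log2 fold changes of 12.51 ± 2.24 (SE) and 9.02 ± 2.13 depend on the small count that the fit adds to such a group. TL3h replicate 1 held 5415 of the 9216 counts at 3 hours, and without it the 3-hour value was 11.77. The 3-day value lost the threshold without control replicate 1 (8.50), 2 (9.35), or 3 (9.34) and without TL3d replicate 1 (9.04) or 2 (8.34).

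At 14 days IL20 differed widely between bleb libraries. There were 0, 372, and 17 counts in TL14d replicates 1 to 3, or 0, 10.1, and 0.553 CPM. The group thus spanned the range from the control libraries into that of the 3-day libraries. The pooled ratio to control was 244 (95% exact interval 67.1 to 2021), nearly all of it from replicate 2, and the fitted value did not pass the threshold (log2 fold change 7.48 ± 2.13). It passed without TL14d replicate 1 (log2 fold change 8.06) and with DESeq2 (7.76), and without replicate 2 it was 3.81.

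IL19 stayed at the edge of detection. Its counts were 0, 2, and 0 in the control libraries, 6, 3, and 8 at 3 hours, 2, 5, and 1 at 3 days, and 1, 13, and 1 at 14 days. All 3 libraries at 3 hours lay above the highest control library, while both later groups overlapped control. TL14d replicate 2 was highest at 14 days for IL19 as for IL20. The pooled ratio to control was 13.4 at 3 hours (95% exact interval 3.18 to 119), 4.53 at 3 days (0.905 to 43.8), and 9.41 at 14 days (2.19 to 84.8). In mean deposited FPKM, which divides by transcript length, IL20 at 3 hours was 66.9 ± 46.7 and IL19 was 0.178 ± 0.0736 (SD, n = 3).

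IL10 was low but detected in all 12 libraries. In the control group it was 0.475, 0.951, and 2.53 CPM, and replicate 3 had the highest value. At 3 hours it was 7.15, 10.8, and 5.30 CPM, above every control library, with a log2 fold change of 2.55 ± 0.67. By 3 days it was 1.95, 3.94, and 5.61 CPM and overlapped both groups (1.54 ± 0.65, not past the threshold). At 14 days it was 0.538, 1.33, and 0.488 CPM, within the control range. Without control replicate 3 the log2 fold change was 3.39 at 3 hours, 2.41 at 3 days, where it passed the threshold, and 0.14 at 14 days in place of -0.74. Without TL14d replicate 2 the 14-day value was -1.36.

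The neighbors of the ligand cluster did not follow 1 pattern. These genes were chosen for their position after values were seen. PIGR, the receptor that carries IgA across epithelia, fell at 3 hours (log2 fold change -1.26 ± 0.39, adjusted p = 0.0229 by edgeR), and FCMR, the Fc receptor for IgM between PIGR and IL20, did not pass the threshold (0.03 ± 0.39, adjusted p = 0.955). MAPKAPK2, a stress kinase that begins 30559 bases beyond IL10, rose at 3 hours (1.12 ± 0.16, adjusted p = 0.000341) and at 3 days (0.58 ± 0.15, adjusted p = 0.0320). DYRK3, a kinase gene next to it, rose as well (1.99 ± 0.40 at 3 hours, adjusted p = 0.00267, and 1.5 ± 0.39 at 3 days, adjusted p = 0.0304).

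IL10RA, the chain that gives IL10 its specificity and is carried mainly by leukocytes, was raised at both early times. It lies on unplaced sequence of OryCun2.0 (gene ID 100354902). Its control levels were 2.97, 7.45, and 22.4 CPM, and replicate 3 was again the highest. At 3 hours it was 70.7, 76.3, and 44.9 CPM, and at 3 days 59.1, 92.6, and 73.7 CPM, so that both groups lay above every control library and overlapped each other. The log2 fold changes were 2.55 ± 0.72 and 2.78 ± 0.73. At 14 days it was 5.78, 29.8, and 16.8 CPM, which overlapped control (0.67 ± 0.69). Without control replicate 3 these values were 3.57, 3.84, and 1.74, with TL14d replicate 1 left out as well the 14-day value was 2.15 and passed the threshold, and without control replicate 2 the 3-hour value no longer passed the threshold (2.33). The 3-day value no longer passed without control replicate 1 (2.33), control replicate 2 (2.57), TL3d replicate 1 (2.93), or TL3d replicate 2 (2.6).

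IL10RB, the accessory chain that IL10 shares with IL22 and the lambda interferons, changed less and from a higher level. It also lies on unplaced sequence (gene ID 100338351). It was 73.0, 78.8, and 121 CPM in control, 264, 163, and 183 CPM at 3 hours, 161, 133, and 139 CPM at 3 days, and 85.5, 125, and 83.9 CPM at 14 days. The libraries at 3 hours lay above those at 3 days, and those at 3 days above control, which the 14-day libraries overlapped. The log2 fold changes were 1.16 ± 0.25, 0.67 ± 0.25, and 0.11 ± 0.25, of which only that at 3 hours passed the threshold. With library size only the 3-hour value was 0.68 and still passed, and without control replicate 3 the 3-day value was 0.91 and passed.

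In deposited FPKM, IL10RB exceeded IL10RA in every library. The ratio of IL10RB to IL10RA was 39.6, 17.0, and 8.70 in control, 6.0, 3.45, and 6.57 at 3 hours, 4.40, 2.31, and 3.03 at 3 days, and 23.8, 6.73, and 8.06 at 14 days. The 6 libraries at 3 hours and 3 days thus had the smallest excess of IL10RB, all below each control and each 14-day library.

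IL20RA, the specific chain of the IL20 receptor, was highest in tissue that had not been operated on. It is at 127458733 to 127501436 on chromosome 12 (minus strand, gene ID 100341271). It was 123, 104, and 95.9 CPM in control, 56.7, 20.8, and 45.0 CPM at 3 hours, 57.8, 33.8, and 51.0 CPM at 3 days, and 85.7, 37.8, and 71.9 CPM at 14 days. Each of the 9 bleb libraries was below each control library, and the 3 bleb groups overlapped each other. The log2 fold changes were -1.40 ± 0.39, -1.18 ± 0.39, and -0.73 ± 0.38, of which that at 3 hours passed the threshold. At 3 days it passed with DESeq2 (-1.19), with only the 6 libraries compared (-1.19), and without TL3h replicate 2 (-1.20), TL14d replicate 1 (-1.18), or TL14d replicate 2 (-1.18). The 3-day value also passed with a block for replicate number.

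IL20RB, which both IL20 receptors need, had the widest swing of the receptor chains. It is at 30710219 to 30743891 on chromosome 14 (plus strand, gene ID 100349338). It was 49.9, 33.8, and 13.3 CPM in control and 4.31, 3.49, and 5.49 CPM at 3 hours, so that the highest library at 3 hours was below the lowest control library. By 3 days it had reached 129, 91.6, and 41.1 CPM, above every 3-hour library, with TL3d replicate 3 inside the control range. At 14 days it was 41.4, 13.8, and 15.8 CPM, within the control range. Against control the log2 fold changes were -2.87 ± 0.62, 1.43 ± 0.58, and -0.45 ± 0.57, and only the first passed the threshold. With DESeq2 the 3-day value passed too (1.43), and without TL14d replicate 1 the 14-day value was -1.13, not past the threshold. Between TL3d and TL3h the difference was 4.30 ± 0.66 on the log2 scale, a 19.7-fold higher level. IL20RB was the 1 member that passed in this comparison, in which 18.4% of all genes passed in the higher direction and 19% in the lower.

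**Figure D2:**
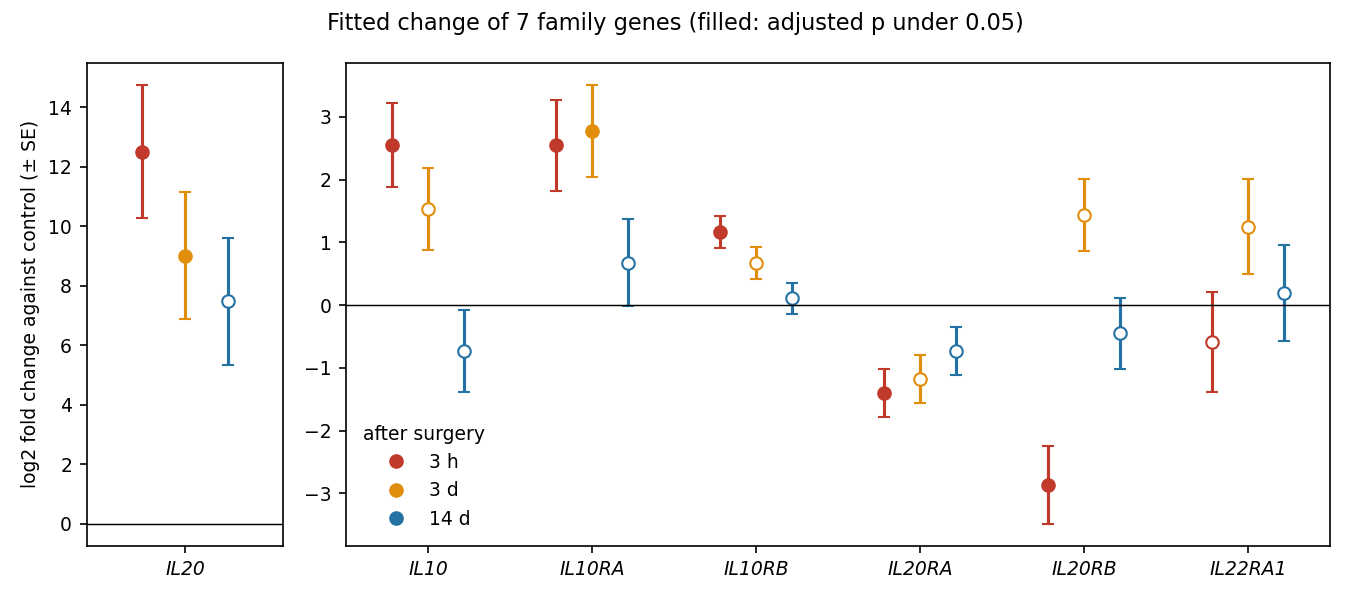
Fitted log2 fold change against control with its SE (vertical axis, with a separate scale for IL20 at the left) for 7 family genes at each time, filled where the adjusted p was under 0.05. IL20RB lies at -2.87 at 3 hours and at 1.43 at 3 days, while IL20RA lies below 0 at all 3 times.

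IL22RA1, the alternative partner of IL20RB, was hardly present. It is at 129209651 to 129230728 on chromosome 13 (plus strand, gene ID 100344077). It was 0.309, 0.675, and 0.125 CPM in control, 0.115, 0.290, and 0.329 CPM at 3 hours, 1.37, 0.954, and 0.313 CPM at 3 days, and 0.168, 0.706, and 0.391 CPM at 14 days. All groups overlapped, and the log2 fold changes of -0.59 ± 0.80, 1.25 ± 0.76, and 0.20 ± 0.76 did not pass the threshold. Without control replicate 2 the 3-hour value was 0.17, and without TL14d replicate 2 the 14-day value was -0.40, so neither direction held, and without control replicate 2 the 3-day value was 2.0. In deposited FPKM, IL20RA exceeded IL22RA1 in each library by 35.2 to 759 times, and IL20RB exceeded it by 5.95 to 122 times.

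Set side by side per length, the chains of the IL20 receptor changed order. In deposited FPKM the ratio of IL20RA to IL20RB was 4.94, 6.19, and 14.4 in control and 26.3, 12, and 16.4 at 3 hours. At 3 days it was 0.894, 0.739, and 2.48, so that IL20RB exceeded IL20RA in TL3d replicates 1 and 2. At 14 days it was 4.14, 5.51, and 9.09, within or just below the range of control. Mean FPKM of IL20RA was 52.0 ± 8.11, 14.2 ± 6.48, 23.0 ± 5.89, and 31.6 ± 11.8 (SD, n = 3) in control, TL3h, TL3d, and TL14d. That of IL20RB was 7.87 ± 4.60, 0.770 ± 0.193, 21.3 ± 11.1, and 5.75 ± 3.75.

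**Figure D3:**
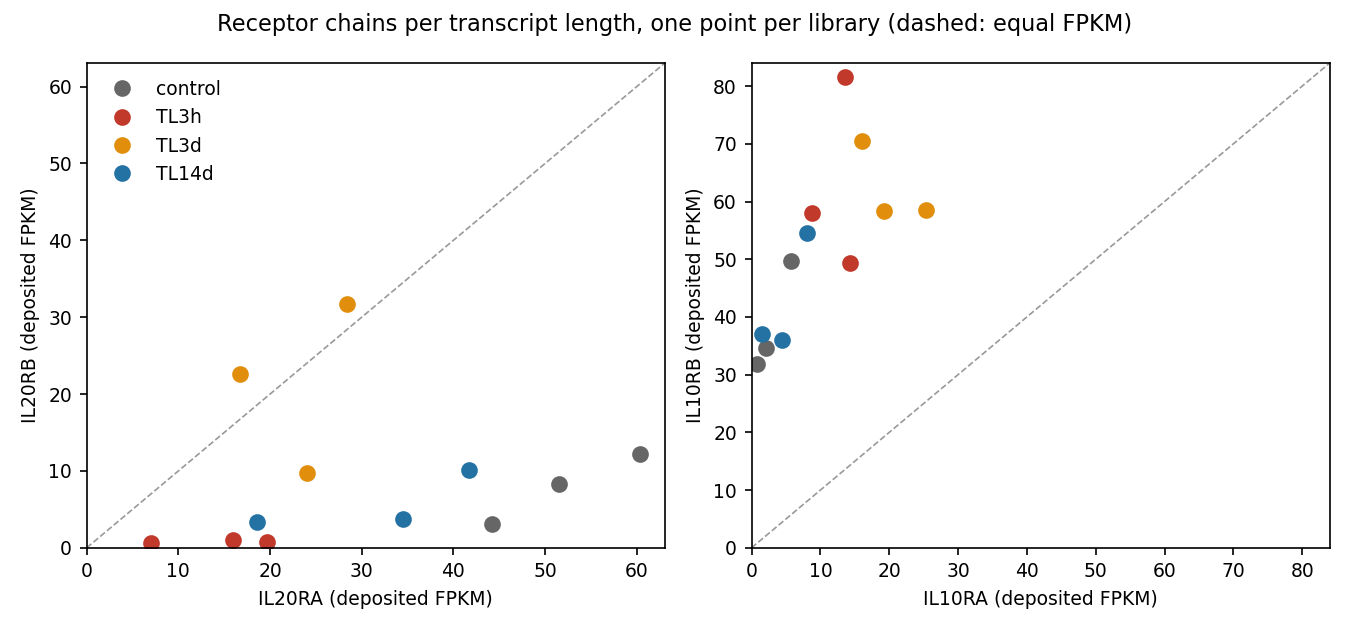
Deposited FPKM of the receptor chains of IL20 (left, IL20RA against IL20RB) and of IL10 (right, IL10RA against IL10RB), with a point per library and a dashed line at equal FPKM. Of the IL20 receptor only TL3d replicates 1 and 2 lie above the line, and IL10RB exceeds IL10RA in all 12 libraries.

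By the count of groups that did not overlap, 4 of the 7 members were higher in all TL3h libraries than in all control libraries, beside 28.9% of all genes, and 2 were lower, beside 28.3%. At 3 days 3 members were higher (IL20, IL10RA, and IL10RB), beside 23.8% of all genes, and 1 was lower (IL20RA), beside 21.7%. At 14 days 0 were higher, beside 6.03%, and IL20RA alone was lower, beside 5.11%. Between TL14d and TL3h, IL10, IL20, and IL10RB were lower past the threshold, beside 22.3% of all genes, and IL20RB was higher, beside 22.9%. Between TL14d and TL3d, 0 members passed by edgeR (2.24% of all genes did, and 3350 genes had an unadjusted p under 0.05), and 3 members passed with DESeq2.

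In the order of levels, neighbouring groups often did not differ beyond their spread. For IL20 the order was TL3h, TL3d, TL14d, and control, and only TL3h was clear of the next group. For IL10 the order was TL3h, TL3d, control, and TL14d with overlap at each step. For IL10RA it was TL3d, TL3h, TL14d, and control, with a gap only between TL3h and TL14d. For IL10RB it was TL3h, TL3d, TL14d, and control, with overlap only between TL14d and control. IL19 and IL22RA1 overlapped at each step of their order. For IL20RA it was control, TL14d, TL3d, and TL3h, with a gap only below control, and for IL20RB TL3d, control, TL14d, and TL3h, with a gap only above TL3h.

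Most members were carried by 1 annotated transcript. IL19, IL10RA, IL10RB, and IL22RA1 had a single transcript each, and the main transcript held 99.8% to 100% of the IL20RA counts and 97.9% to 98.4% of the IL20RB counts in each group. For IL20, the transcript of 1298 bases held 13.4% of the 2 control counts and 95.8% of the counts at 3 hours, 96.5% at 3 days, and 97.3% at 14 days. IL10 was split between a transcript of 916 bases, with 55.1%, 43.6%, 72.6%, and 49.4% of the counts in control, TL3h, TL3d, and TL14d, and a transcript of 1207 bases with the rest. The share of the shorter IL10 transcript was 67.5% to 75.1% in the 3-day libraries and 35.1% to 49.1% in the 3-hour libraries, which did not overlap. No test was made of these shares, which are estimates that divide shared reads.

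Markers of other cell types moved with several members. The summed level of 4 monocyte and macrophage markers with a row (CD68, CD14, CSF1R, and MRC1, of 7 listed) was 60.6 to 445 CPM in control, 493 to 829 CPM at 3 hours, 792 to 1330 CPM at 3 days, and 84.0 to 400.3 CPM at 14 days. At 3 hours CD14 (log2 fold change 3.64 ± 0.99) and CD68 (1.98 ± 0.42) passed the threshold. CSF1R (0.34 ± 0.66) and MRC1 (1.39 ± 0.88) did not pass there. IL10RA was 48.9, 59.3, and 50.4 CPM per 1000 CPM of the 4 markers in control and 125, 92.1, and 91.1 at 3 hours, so that it stood above control at 3 hours on this measure too. At 3 days it was 74.6, 70.5, and 55.4 and at 14 days 68.9, 74.5, and 69.7. On this measure the 14-day libraries thus lay above every control library as well, and at 3 days replicate 3 overlapped control. On the same measure IL10 was 7.83, 7.56, and 5.70 in control, 12.7, 13.0, and 10.8 at 3 hours, and 2.46, 3.00, and 4.21 at 3 days, below control. At 14 days it was 6.41, 3.33, and 2.03, with replicate 1 inside the control range and the others below it. The part of these cells in the results was not tested.

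The 6 neutrophil markers summed to 1.95 to 31.6 CPM in control, where MMP25 was at 0, to 493 to 1154 CPM at 3 hours, 75.3 to 252 CPM at 3 days, and 1.55 to 48.3 CPM at 14 days. The 3 endothelial markers summed to 15.9 to 230 CPM in control, 589 to 1180 CPM at 3 hours, 264 to 505 CPM at 3 days, and 52.5 to 253 CPM at 14 days. The 4 fibroblast markers summed to 6109 to 34399 CPM in control, 46438 to 57684 CPM at 3 hours, 725 to 25704 CPM at 3 days, and 4329 to 22448 CPM at 14 days. The 4 T cell markers summed to 7.65 to 20.6 CPM in control and 7.57 to 13.6 CPM at 3 hours, which overlapped. The 3 B cell markers with a row summed to 0.973 to 3.09 CPM in control, 2.54 to 8.59 CPM at 3 hours, and 2.16 to 7.23 CPM at 3 days, and of them MS4A1 rose at 3 hours (3.15 ± 0.70, adjusted p = 0.00453 by edgeR) and at 3 days (2.49 ± 0.68, adjusted p = 0.0349). SPDEF, the goblet cell marker with a row, was 8.66 to 14.7 CPM in control, 5.43 to 19.0 CPM at 3 hours, 2.77 to 3.96 CPM at 3 days, and 1.77 to 21.2 CPM at 14 days.

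The 5 epithelial markers with a row (KRT4, KRT5, PAX6, CDH1, and EPCAM, of 8 listed) summed to 3910 to 8294 CPM in control, 3955 to 6481 CPM at 3 hours, 6073 to 16048 CPM at 3 days, and 8400 to 12518 CPM at 14 days. At 3 hours this sum, most of it KRT4 and KRT5, stayed within the control range, but its members did not move together: PAX6 fell (-1.70 ± 0.41, adjusted p = 0.00693 by edgeR), EPCAM rose (0.997 ± 0.16, adjusted p = 0.000884), and KRT4, KRT5, and CDH1 did not pass. At 3 days KRT5 rose (1.86 ± 0.48, adjusted p = 0.0291) and the other 4 did not pass. Per 1000 CPM of these markers, IL20RB was 6.02, 5.35, and 3.40 CPM in control, 0.664, 0.881, and 0.976 at 3 hours, 8.07, 6.43, and 6.77 at 3 days, and 4.93, 1.10, and 1.75 at 14 days, so that on this measure too the 3-hour libraries were below all others and the 3-day libraries above all others. IL20RA was 14.9, 16.5, and 24.5 in control and 8.74, 5.27, and 8.0 at 3 hours. At 3 days it was 3.6, 2.38, and 8.40, and at 14 days 10.2, 3.02, and 7.96, so that each bleb library stayed below control. The part of the epithelium in these results was not tested.

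**Figure D4:**
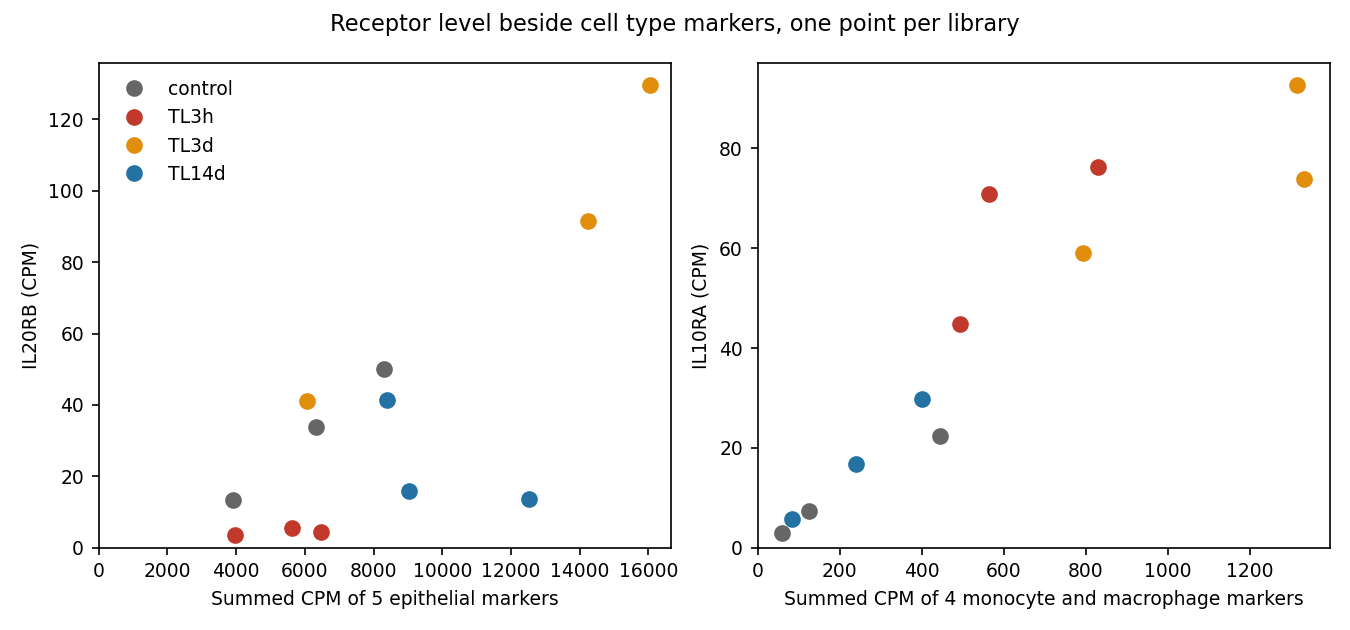
IL20RB against the summed CPM of 5 epithelial markers (left) and IL10RA against that of 4 monocyte and macrophage markers (right), with a point per library. The 3 libraries at 3 hours had 3.49 to 5.49 CPM of IL20RB at epithelial sums within the range of control, and the 6 libraries at 3 hours and 3 days had the highest IL10RA.

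Of the other family genes, the decoy receptor IL22RA2 rose with the ligands. It lies 63490 bases from IL20RA on chromosome 12 (127564927 to 127578496, minus strand, gene ID 100341531). It was 0.783, 2.10, and 2.06 CPM in control, 35.7, 58.2, and 22.8 CPM at 3 hours, 27.2, 11.9, and 9.62 CPM at 3 days, and 0.807, 10.1, and 2.96 CPM at 14 days. The 3-hour and 3-day libraries lay above every control library, and the 14-day libraries overlapped control. The log2 fold changes were 4.56 ± 0.90 at 3 hours (adjusted p = 0.00241 by edgeR), 3.30 ± 0.85 at 3 days (adjusted p = 0.0287), and 1.5 ± 0.80 at 14 days (adjusted p = 0.556). The 3-day value of IL22RA2 lost the threshold without any 1 control library or without TL3d replicate 1 (2.71) or 2 (3.48). IL22 itself had 2 counts in all 12 libraries together and IL26 had 0. IFNLR1, the lambda interferon receptor chain that lies 9706 bases from IL22RA1, did not pass the threshold at any time (log2 fold change -0.56 ± 0.25, -0.70 ± 0.25, and 0.07 ± 0.25).

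The pathway lists hold genes that act in or downstream of these receptor pathways, together with IL22RA2 and IFNLR1 from the family, and they too were chosen with earlier results known. Of their 35 tested genes, 21 were higher and 3 lower at 3 hours, 9 were higher and 1 lower at 3 days, and 0 passed at 14 days, when DESeq2 called 3. Of all genes, 23.2% were higher and 22.2% lower at 3 hours, and 10.6% higher and 7% lower at 3 days. The median log2 fold change of the 35 genes was 2.34, 0.90, and 0.21 at these times, beside 0.02, -0.00182, and 0.02 over all genes. Many other signals act on the same genes, so the counts are not a measure of IL10 or IL20 action. Without control replicate 2 the count at 3 days was 0, without control replicate 1 it was 1, without TL3d replicate 1 it was 2, and without TL3d replicate 2 it was 4. With control replicate 3 and TL14d replicate 1 both left out it was 20.

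Of 12 signalling genes tested, 5 rose and 1 fell at 3 hours, a share near the 45.4% of all genes that passed, with a median log2 fold change of 0.37. At 3 days 2 rose, beside 10.6% of all genes higher. STAT3 rose from 466 ± 191 to 1316 ± 80.4 CPM (SD, n = 3) at 3 hours (log2 fold change 1.5 ± 0.26, adjusted p = 0.00109 by edgeR) and was at 485 ± 59.6 CPM at 3 days. SOCS3, the STAT3 target that blocks receptor signalling in turn, was 3.11 to 23.1 CPM in control, 325 to 664 CPM at 3 hours, and 69.6 to 136 CPM at 3 days. It rose at 3 hours (5.68 ± 0.92, adjusted p = 0.000832) and at 3 days (3.22 ± 0.82, adjusted p = 0.0280), and at 14 days it was 4.40 to 21.7 CPM. Without control replicate 3 its log2 fold changes were 7.10 at 3 hours and 4.68 at 3 days, and without control replicate 1 or 2 or TL3d replicate 1 or 2 the 3-day value did not pass. The related inhibitors CISH (3.18 ± 0.34, adjusted p = 0.000102) and SOCS1 (2.84 ± 0.53, adjusted p = 0.00176) rose at 3 hours.

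The kinases of the pathway differed. JAK1 was 364 ± 27.1 CPM in control and 462 ± 53.9 CPM at 3 hours, which did not pass the threshold (0.34 ± 0.16, adjusted p = 0.113 by edgeR). TYK2 fell at 3 hours, from 24.7 to 29.8 CPM in control to 9.48 to 17.3 CPM (-0.99 ± 0.21, adjusted p = 0.00343), and was back at 29.2 to 32.3 CPM at 3 days. JAK2 rose from 43.6 to 58.3 CPM in control to 156 to 175 CPM at 3 hours (1.72 ± 0.15, adjusted p = 3.99e-05), and it was 75.8 to 81.4 CPM at 3 days (0.67 ± 0.14, adjusted p = 0.0174). The 3-day value of JAK2 did not pass without control replicate 1 or 2 or without TL3d replicate 1 or 2.

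Of 11 tested genes known to be induced by IL10 in macrophages, 8 rose and 0 fell at 3 hours, beside 23.2% of all genes higher and 22.2% lower, and 2 rose and 1 fell at 3 days, beside 10.6% and 7%. Their median log2 fold change was 2.45 at 3 hours and 1.77 at 3 days. HMOX1, which degrades heme, rose from 25.4 to 77.8 CPM in control to 1237 to 2877 CPM at 3 hours (5.47 ± 0.61, adjusted p = 0.000123 by edgeR) and was still higher at 3 days (1.77 ± 0.52, adjusted p = 0.0435). NFIL3, a transcription factor of immune cells, rose at 3 hours (4.64 ± 0.81, adjusted p = 0.00121). FPR1, a receptor for bacterial peptides that neutrophils also carry, was 0.214, 0.450, and 3.84 CPM in the control libraries from lowest to highest and rose at 3 hours (5.82 ± 1.62, adjusted p = 0.0144). Without control replicate 3 the 3-hour values were 7.94 for FPR1, 6.15 for HMOX1, and 5.55 for NFIL3, and without control replicate 2 FPR1 did not pass (adjusted p = 0.0549). HMOX1 at 3 days was 2.49 without control replicate 3 and lost the threshold without control replicate 1 or 2, TL3h replicate 1 or 3, TL3d replicate 1 or 2, or TL14d replicate 3. IL4R, the receptor of IL4 and IL13, rose at 3 hours (2.74 ± 0.42, adjusted p = 0.000589) and was still higher at 3 days (2.11 ± 0.41, adjusted p = 0.0142), whereas ETV3, a repressor, was lower at 3 days (-0.85 ± 0.26, adjusted p = 0.0463). At 3 days IL4R did not pass without control replicate 1 or 2 or TL3d replicate 1, and ETV3 passed only without control replicate 3 or without TL14d replicate 1 or 3 among the fits that left out 1 library.

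Of 10 tested genes known to be induced by the IL20 group or IL22 in cultured epidermis, 7 rose and 2 fell at 3 hours, beside 23.2% of all genes higher and 22.2% lower, and 4 rose at 3 days, beside 10.6% higher. Their median log2 fold change was 5.56 at 3 hours and 3.29 at 3 days. KRT16, a keratin of activated epithelium, rose from 0.142 to 0.325 CPM in control to 153 to 230 CPM at 3 hours (9.69 ± 1.72, adjusted p = 0.00138 by edgeR). It was 12.9 to 167 CPM at 3 days (8.69 ± 1.67, adjusted p = 0.0139). MMP3, a matrix metalloproteinase, had 1 control count in all and gave a pooled ratio of 520 at 3 hours (95% exact interval 92.6 to 20590) and 3360 at 3 days (603 to 132756). At 3 hours S100A8 (5.97 ± 1.70, adjusted p = 0.0159) and S100A12 (5.57 ± 1.61, adjusted p = 0.0174) rose. At 3 days S100A12 passed (5.22 ± 1.59, adjusted p = 0.0474) and S100A8 did not (3.44 ± 1.51, adjusted p = 0.130). In control S100A8 was 0.807, 0.976, and 25.8 CPM from lowest to highest, and without control replicate 3 the 3-hour values were 9.28 for S100A8 and 6.99 for S100A12. S100A12 did not pass at 3 hours without control replicate 1 (adjusted p = 0.0503) or 2 (adjusted p = 0.0657), and without TL3h replicate 2 S100A8 was 5.38. At 3 days S100A12 passed only without TL3d replicate 3 or without TL14d replicate 1 among the fits that left out 1 library. KRT16 at 3 days did not pass without control replicate 1 or 2, nor MMP3 without control replicate 2. S100A8 and S100A12 are also abundant in neutrophils, whose marker sums are given above, and the part of these cells was not tested. KRT6A, S100A7, DEFB4A, CXCL5, and SERPINB4 were not analysed here.

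**Figure D5:**
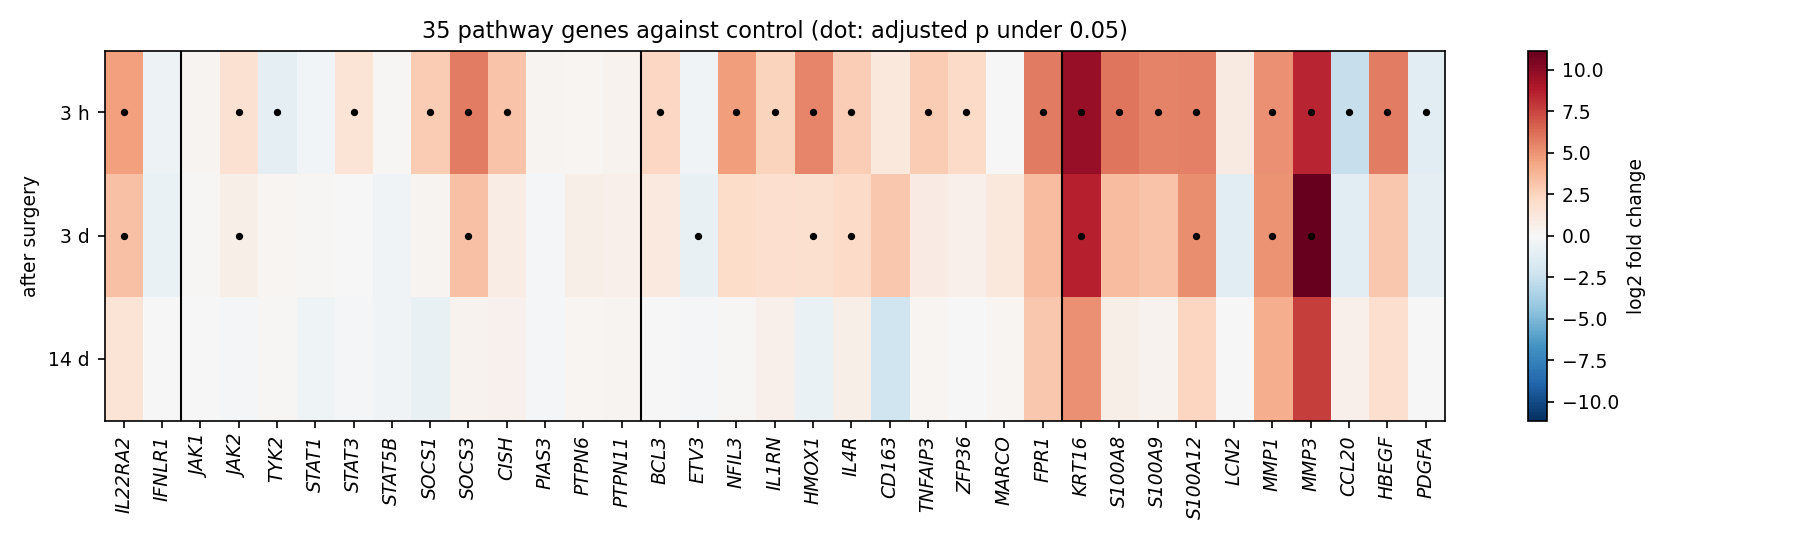
Log2 fold change against control (color scale) of 35 pathway genes at each time, with a dot where the adjusted p was under 0.05 and vertical lines between the family genes, signalling genes, IL10-induced genes, and epidermal genes. Dots mark 24 genes in the 3-hour row, 10 in the 3-day row, and 0 in the 14-day row.

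Genes with the pattern most like each member were sought over the 12 libraries among 13247 genes of at least 1 CPM, by Pearson's r of log2 levels. The points share their groups, so many genes reach a high r. IL10RA was closest to TYROBP, an adaptor of myeloid cell receptors (r = 0.993), to a galactosyltransferase gene (LOC100348435, r = 0.988), and to CSF2RA, a chain of the GM-CSF receptor (r = 0.987). IL20 was closest to PSMB1 (r = 0.986), PRDM1 (r = 0.985), and CAP1 (r = 0.984), and IL10 to SAMHD1 (r = 0.968), CSF1 (r = 0.966), and RCSD1 (r = 0.960). IL10RB was closest to BCL3 (r = 0.977), then SNRPA1 and CSF3 (r = 0.964 each). IL20RA was closest to NEURL1 (r = 0.961), FAM174B (r = 0.960), and C2CD5 (r = 0.947), and IL20RB to GPI (r = 0.963), POLE (r = 0.962), and BCL2L13 (r = 0.960). IL22RA1, at its low level, was closest to PAX5 (r = 0.900), GAREM2 (r = 0.884), and CA2 (r = 0.877). Between members the values ran from 0.908 for IL20 with IL10RB to -0.803 for IL10RA with IL20RA, and IL20RA with IL20RB gave 0.349.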

How the data were processed

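Reads were aligned by the authors with STAR (2.6.0c in the submitters' processing notes) against assembly OryCun2.0, whose coordinates are given, and the authors derived values per gene and per transcript with GeneData Profiler Genome. The authors deposited estimated counts, of which 23.4% in the gene table were fractions, and FPKM values divided by transcript length and depth. Libraries were made with a stranded kit, and whether strand was used in counting is not given in the sources used here. After rounding to whole numbers, 14835 of 20566 genes passed filterByExpr (at least 10 counts, total of at least 15), counts were normalized by TMM, and all 12 libraries entered 1 quasi-likelihood fit in edgeR 4.0.16 (R 4.3.3) without covariates, with Benjamini-Hochberg adjustment over all genes kept and a threshold of 0.05. The prior count was 0.125, and SE were derived from the fold change and the test statistic. FPKM were used only to set genes side by side. The fit was tested on simulated data of 14835 genes for the 3-hour comparison, where 113 of 200 changed genes were recovered with 4 false calls. Only these 200 genes changed, equally up and down. The simulation therefore does not cover a comparison in which 45.4% of all genes passed, nor the scaling there.

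The members and lists were chosen with earlier results of these data known. Named genes were all members, STAT3, SOCS3, JAK1, and TYK2, up to 3 called genes per list and comparison with the largest change at a mean of at least 1 CPM, and 3 pattern neighbors per member. The other family genes, marker genes given beside member results, and genes next to the ligand cluster were named outside this rule, the last 2 kinds after their values were seen. Nothing in the labels says from how many animals the control libraries came, so p-values measure only the spread between these samples. Intervals and floors cover counting error only. Alternatives were other normalizations, no filter, DESeq2 1.42.0, the 6 libraries compared, a replicate block, and leaving out each library. No rabbit sequence table was used here.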

Additional observations from a re-analysis of the deposited data

Results flagged for a closer look

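The following differences between time points passed the edgeR quasi-likelihood test of the difference itself, with no explanation weighed, and the values of the members describe how they were chosen. Between 3 days and 3 hours, IL20RB was higher by 4.30 on the log2 scale and TYK2 by 1.17, while STAT3 (-1.44) and SOCS3 (-2.46) were lower. Between 14 days and 3 hours, IL10 (-3.29), IL20 (-5.03), IL10RB (-1.05), STAT3 (-1.72), and SOCS3 (-5.31) were lower, and IL20RB (2.42) and TYK2 (1.15) were higher. Of the genes that passed here, IL20RB and TYK2 were thus those with their lowest group mean at 3 hours. IL20RA and IL22RA1 also had their lowest group mean at 3 hours but did not pass. No group held enough libraries for a check of single outlying values.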

How the results depend on the processing

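No member that passed the threshold against control changed direction under any alternative run. The count of members past the threshold at 3 hours was 6 under every normalization, without the filter, with DESeq2, and with the block, and 5 to 6 when single libraries were left out. At 3 days the 2 members became 4 with DESeq2, 4 with control replicate 3 and TL14d replicate 1 both left out (chosen after seeing the data), and 0 to 3 when single libraries were left out: 0 without control replicate 1, control replicate 2, TL3d replicate 1, or TL3d replicate 2. At 14 days the count of 0 became 1 with DESeq2, 1 with both libraries left out, and 0 to 1 with single libraries left out. For TL3d against TL3h the count of 1 became 2 with library size only, DESeq2, only the 6 libraries compared, the replicate block, and both libraries left out, and was 1 to 2 with single libraries left out. For TL14d against TL3d it was 3 with DESeq2 and 1 with both libraries left out. For TL14d against TL3h it was 3 to 5 with single libraries left out. Pathway genes past the threshold, 24 at 3 hours, were 27 there with library size only and 28 with both libraries left out. They numbered 20 to 25 at 3 hours, 0 to 14 at 3 days, and 0 to 3 at 14 days with single libraries left out, 22 at 3 days and 3 at 14 days with DESeq2, and 20 and 6 with both libraries left out. Same-numbered libraries correlated by -0.153 to 0.517 in their deviations from the group means, and not every library correlated best with its own number. With 3 libraries a group these values cannot decide whether same-numbered libraries are paired. With the replicate block the counts of members were 6 at 3 hours, 3 at 3 days, and 6 for TL14d against TL3h, and IL20RA at 3 days passed (log2 fold change -1.25). The cause of these differences was not tested. With 3 libraries a group and 0 to 2 counts of IL19 or IL20 in control libraries, depth limits the size of their ratios.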
